A study of Homo sapiens with 14 samples.

Results

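Prostaglandins are short-lived lipid signals that cells make from arachidonic acid. The 10 genes followed here act in their synthesis, sensing and breakdown, and were measured by RNA sequencing of cultured human lung fibroblasts. They are PTGS1, PTGS2, PTGES, PTGES2, PTGES3, PTGIS, PTGER2, PTGER4, PTGFR and HPGD, 10 of the 54628 gene symbols in the count files. They were chosen by name for their place in the pathway, and all 10 are listed in each of the 14 libraries.

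The pathway runs in steps. Phospholipases release arachidonic acid from membranes, and the cyclooxygenases turn it into prostaglandin H2, the shared precursor. PTGS1 encodes the cyclooxygenase that many tissues make all the time, and PTGS2 the one that cytokines, growth factors and other stimuli induce. Terminal synthases then make the active products: PTGES and PTGES2 make prostaglandin E2, and PTGIS makes prostacyclin. PTGES3, also known as p23, has been described as a further prostaglandin E synthase and is best known as a co-chaperone of HSP90. Prostaglandin E2 acts through G protein-coupled receptors that include those encoded by PTGER2 and PTGER4, prostaglandin F2α acts through the one encoded by PTGFR, and HPGD encodes the dehydrogenase that inactivates prostaglandins. In lung fibroblasts, prostaglandin E2 is known to restrain growth and collagen production.

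The cells were IMR90, human fibroblasts of the lung, grown per the labels from the isolates I79 and I83 at passage 5. The labels do not say which isolate gave which library. WT are untreated cells, and siHMGB2 are untreated cells in which HMGB2, a chromatin protein, was knocked down by siRNA. ICM are cells in which senescence, a lasting arrest of growth, was induced with 10 µM inflachromene, a small molecule that binds HMGB1 and HMGB2, for up to 6 days. In siSRRM2, siBANF1 and siCTCF, cells under the same ICM treatment had SRRM2 (a splicing factor), BANF1 (a protein that links chromatin to the nuclear envelope) or CTCF (a protein that organises chromatin loops) knocked down. No group is labelled as having received a control siRNA, so loss of a target and siRNA transfection itself cannot be told apart in the knockdown comparisons. Each group had 2 libraries except ICM, which had 4. ICM 3, ICM 4 and both siCTCF libraries carry a different form of title from the other 10, and their cell line tags run from IMR91 to IMR94 although their titles read IMR90. The study's stated interest was splicing in senescence, and its design text sets ICM and siHMGB2 against WT and the SRRM2 and BANF1 knockdowns against ICM. ICM was here kept as 2 pairs, ICM 1-2 and ICM 3-4, and siSRRM2 and siBANF1 were set against ICM 1-2 and siCTCF against ICM 3-4. WT has no library of the second title form, so ICM treatment and set cannot be told apart in a comparison of ICM 3-4 with WT. Nothing in the labels says that the 2 libraries of a group came from separate cultures, so the p-values measure the spread between these libraries, which may be technical.

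The libraries held 22336161 to 58257456 gene counts, and levels are given as CPM, the counts of a gene per 1000000 gene counts of its library. Small RNA genes took 3.25% to 6.15% of the counts in the 6 libraries of the first ICM set and 0.112% to 0.728% in the other 8 libraries, and mRNA of the mitochondrial genome took 2.7% to 3.54% in WT and siHMGB2 and 0.0675% to 0.754% elsewhere. The part of this difference in composition in the values below was not tested. All 10 fibroblast markers examined were at 1 CPM or more in every library, while all 5 epithelial markers and 4 of 5 leukocyte markers were below 1 CPM in every library. HMGB2 was at 11.5% and 12.6% of the same-numbered WT library in siHMGB2, and CTCF was at 75.4% and 25% of ICM 3 and ICM 4 in siCTCF. SRRM2 was at 32.0% and 68.0% of ICM 1 and ICM 2 in the libraries labelled siSRRM2, and at 24.8% and 15.1% in those labelled siBANF1. BANF1 was at 125% and 112% of ICM 1 and ICM 2 in the libraries labelled siBANF1, and at 253% and 102% in those labelled siSRRM2. It was thus below its ICM library under neither label. The names of the deposited files exchange these knockdowns, so each is called here the library labelled as such. ICM 1 and ICM 2 differed from each other far more than most replicates, with a median chi-square per gene of 50.8, as did siBANF1 1 and siBANF1 2 with 49.0, against 1.11 to 10.1 in the other 5 pairs.

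PTGS2, at chr1:186671791-186680423, had the widest range of the 8 members with counts in every library, 702-fold from its lowest to its highest. It was at 1019 CPM in WT 1 and 580.5 CPM in WT 2. In siHMGB2 it was at 199 and 69.9 CPM, below both WT libraries. In ICM 1 and ICM 2 it was at 329 and 56.6 CPM, again below WT but 5.81-fold apart, and in ICM 3 and ICM 4 it was at 5.15 and 4.26 CPM. The libraries labelled siSRRM2 had 116 and 109.6 CPM, within the range of ICM 1-2. Those labelled siBANF1 had 2279 and 48.5 CPM, the highest value of all libraries beside a value below that of ICM 2. In siCTCF the levels were 7.34 and 3.25 CPM, on either side of ICM 3-4. The 4 libraries of ICM 3-4 and siCTCF lay below all 10 others.

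Against WT, PTGS2 fell in siHMGB2 by 2.51 ± 0.36 on the log2 scale (edgeR quasi-likelihood test, adjusted p = 0.00059, n = 2 against 2). It did not pass there in the edgeR fit of all 14 libraries, in which no gene passed. The ± on a log2 difference is an SE, computed as the absolute difference over the square root of the test's F statistic. In means, PTGS2 went to 135 ± 91.5 CPM from 800.0 ± 310.4 CPM (SD). In ICM 3-4 it fell by 7.60 ± 0.40 (adjusted p = 0.000378), to 4.70 ± 0.63 CPM, 170.2-fold below the mean of WT. In ICM 1-2 the log2 difference from WT was -2.02 ± 0.97 and did not pass (adjusted p = 0.301). An adjusted p is corrected by the Benjamini-Hochberg method over all genes tested in that comparison, and a gene was called where it lay under 0.05. ICM 3-4 against ICM 1-2 gave a log2 difference of -5.60 ± 0.97, with an adjusted p of 0.0557. PTGS2 passed in that comparison in 8 of 9 alternative analyses, whose adjusted p ran from 2.74e-17 to 0.0538.

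PTGS1, at chr9:122370533-122395703, moved less between groups and more between some replicates. The WT libraries had 504 and 513 CPM and the siHMGB2 libraries 413 and 364 CPM, so the groups did not overlap. It was at 204 and 94.3 CPM in ICM 1 and ICM 2, and at 330.1 and 38.4 CPM in ICM 3 and ICM 4. The siCTCF libraries had 309 and 41.5 CPM, so that siCTCF 1 lay close to ICM 3 and siCTCF 2 close to ICM 4. Those labelled siSRRM2 had 257 and 247 CPM, above both ICM 1-2 libraries, and those labelled siBANF1 had 774 and 93.8 CPM. PTGS1 passed in none of the 7 comparisons. Its log2 difference from WT was -0.32 ± 0.14 in siHMGB2 (adjusted p = 0.170), -1.77 ± 0.53 in ICM 1-2 (adjusted p = 0.162) and -1.62 ± 0.88 in ICM 3-4 (adjusted p = 0.161). Without ICM 3 the last difference was -4.01 and passed (adjusted p = 2.45e-08), and without ICM 4 it was -0.75 and passed too (adjusted p = 0.00108), so its size moved with which of these 2 libraries was kept.

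The balance between the cyclooxygenases was compared per length, as counts per kilobase of exon scaled to the same sum in every library (a TPM-like level), because counts grow with the length of a transcript. In WT 1 and WT 2 PTGS2 stood at 2.22 and 1.24 times PTGS1. In siHMGB2 the order was turned round, with ratios of 0.530 and 0.211. It was 1.77 in ICM 1 and 0.660 in ICM 2, 0.495 and 0.489 in the libraries labelled siSRRM2, and 3.24 and 0.568 in those labelled siBANF1. In ICM 3, ICM 4, siCTCF 1 and siCTCF 2 the ratios were 0.0171, 0.122, 0.0261 and 0.0861, so PTGS1 made up most of the cyclooxygenase mRNA in all 4. PTGS2 was above PTGS1 in 4 of the 14 libraries: WT 1, WT 2, ICM 1 and the first library labelled siBANF1.

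**Figure D1:**
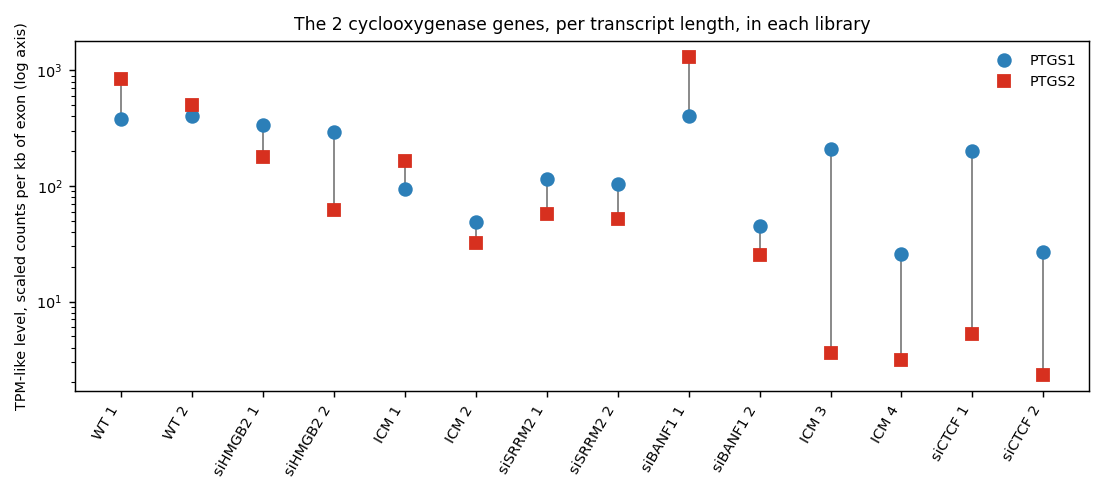
PTGS1 (circles) and PTGS2 (squares) in each of the 14 libraries, as TPM-like levels (scaled counts per kilobase of exon) on a log axis, with a line joining the pair of a library. PTGS2 lies above PTGS1 in WT 1, WT 2, ICM 1 and siBANF1 1, and farthest below it in ICM 3, at a ratio of 0.0171.

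The promoter of PTGS2 is shown because its gene moved most. RefSeq gives, on build GRCh38.p14, the 250 bases before its start at chr1:186680424-186680673 on the minus strand. Capitals mark matches to 9 short motifs searched on both strands, which were the TATA box TATAAA, the cyclic AMP response element TGACGTCA with its core TGACG (contained in the full element), the AP-1 motif TGANTCA, 2 forms of the NF-kB motif that can share bases, the GC box GGGCGG, the CCAAT box and the E-box CACGTG.
PTGS2: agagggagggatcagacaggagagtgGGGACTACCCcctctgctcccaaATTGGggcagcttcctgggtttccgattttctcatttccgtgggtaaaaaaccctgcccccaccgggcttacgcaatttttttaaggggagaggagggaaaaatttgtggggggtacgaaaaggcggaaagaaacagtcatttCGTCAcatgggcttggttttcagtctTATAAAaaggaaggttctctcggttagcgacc
The window held TATAAA 32 to 27 bases before the start, TGACG on the opposite strand at 58 to 54, CCAAT on the opposite strand at 201 to 197, and the second form of the NF-kB motif, the run GGGACTACCC in capitals, at 224 to 215. Over all 35116 promoter entries of that length, TATAAA was found in 10.7%, TGACG in 21.2%, CCAAT in 32.0% and that NF-kB form in 6.48%. A match is a match of letters, not a site known to be bound. PACERR, a non-coding RNA that starts at this promoter on the other strand, had 0.796 to 1.76 CPM in WT and 0.340 to 0.512 CPM in siHMGB2. It had 1.25 and 0.111 CPM in ICM 1 and ICM 2. The libraries labelled siSRRM2 had 0.831 and 0.974 CPM, and those labelled siBANF1 had 3.17 and 0.240 CPM. In ICM 3-4 and siCTCF it had 0.0373 to 0.179 CPM, which rests on 1 to 4 counts in a library. Whether counting used strand is not given in the sources used here, but the annotated exons of PACERR and PTGS2 share no base.

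PTGES, at chr9:129738349-129753042, encodes the inducible prostaglandin E synthase that is commonly paired with PTGS2. WT had 89.8 and 55.9 CPM, and siHMGB2 had 38.2 and 19.9 CPM. ICM 1 and ICM 2 had 22.2 and 2.52 CPM, 8.80-fold apart, and ICM 3 and ICM 4 had 3.68 and 1.18 CPM. Every library of siHMGB2 and of both ICM pairs lay below both WT libraries. The libraries labelled siSRRM2 had 4.22 and 3.94 CPM, those labelled siBANF1 had 71.7 and 2.61 CPM, and siCTCF had 3.94 and 1.53 CPM. PTGES fell in siHMGB2 by 1.27 ± 0.25 on the log2 scale (adjusted p = 0.00522) and in ICM 3-4 by 5.09 ± 0.57 (adjusted p = 0.00128), 30.0-fold in the means. The log2 difference of ICM 3-4 was -6.22 without ICM 3 and -4.44 without ICM 4. In siHMGB2 the call did not hold without siHMGB2 2, where the log2 difference was -0.87, or with DESeq2 (adjusted p = 0.137). Nor did it hold in the edgeR fit of all 14 libraries, which called no gene in that comparison. In ICM 1-2 its log2 difference from WT was -2.52 ± 1.10 (adjusted p = 0.267).

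PTGES2, at chr9:128120693-128128440, encodes a membrane-associated prostaglandin E synthase. It varied 2.80-fold over all libraries. WT had 44.8 and 39.6 CPM and siHMGB2 had 41.0 and 43.8 CPM, overlapping. ICM 1 had 27.8 CPM, the lowest, and ICM 2 had 61.8 CPM. The first library labelled siBANF1 was also low, at 30.7 CPM, and the second was at 68.1 CPM. The libraries labelled siSRRM2 had 72.4 and 72.8 CPM, ICM 3 and ICM 4 had 70.4 and 76.9 CPM, and siCTCF had 62.5 and 77.7 CPM. PTGES2 rose in ICM 3-4 against WT by 0.62 ± 0.16 on the log2 scale (adjusted p = 0.0181), and it did not pass without WT 1 (adjusted p = 0.130), without WT 2 (adjusted p = 0.278) or in the edgeR fit of all 14 libraries (adjusted p = 0.244). Per length, PTGES stood at 3.22 and 2.26 times PTGES2 in WT and at 0.0839 and 0.0246 times in ICM 3 and ICM 4.

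PTGES3, at chr12:56663349-56688284, had 221 and 217 CPM in WT, with 245 and 208 CPM in siHMGB2. It was lower in the first set, at 94.6 and 171 CPM in ICM 1 and ICM 2, 115 and 104 CPM where the label was siSRRM2, and 124 and 150.0 CPM where it was siBANF1. It was higher in the second set, at 363 and 351 CPM in ICM 3 and ICM 4 and 414 and 347 CPM in siCTCF. Thus both ICM 1-2 libraries lay below WT and both ICM 3-4 libraries above it. In ICM 3-4 PTGES3 rose against WT by 0.52 ± 0.15 on the log2 scale (adjusted p = 0.0291). It did not pass without WT 1 (adjusted p = 0.238), without WT 2 (adjusted p = 0.299), with no filter on low counts (adjusted p = 0.0749) or in the edgeR fit of all 14 libraries (adjusted p = 0.196). In ICM 1-2 the log2 difference from WT was -0.80 ± 0.34 (adjusted p = 0.258). The direct comparison of the ICM pairs gave 1.30 ± 0.43, with an adjusted p of 0.134. Processed copies of PTGES3 were counted apart from it, and the most counted, PTGES3P1, had 18 to 76 counts in a library, so reads that fit both may have been left out or divided.

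PTGIS, the prostacyclin synthase at chr20:49503874-49568137, was the least counted of the 9 detected genes. It had 2.15 and 2.47 CPM in WT and 4.42 and 3.64 CPM in siHMGB2, so siHMGB2 lay above WT without overlap. ICM 1 and ICM 2 had 0.943 and 0.166 CPM, the libraries labelled siSRRM2 had 0.741 and 0.303 CPM, and those labelled siBANF1 had 0 and 0.103 CPM. It had no count in ICM 3, ICM 4, siCTCF 1 and siCTCF 2. In ICM 3-4 it fell against WT (adjusted p = 0.00157), and with 3 counts over the 2 libraries as the limit that a count of 0 allows it was at least 38.0-fold lower. This limit covers counting error only. In siHMGB2 its log2 difference was 0.87 ± 0.28 (adjusted p = 0.063), and in ICM 1-2 it was -2.04 ± 0.97 (adjusted p = 0.301).

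**Figure D2:**
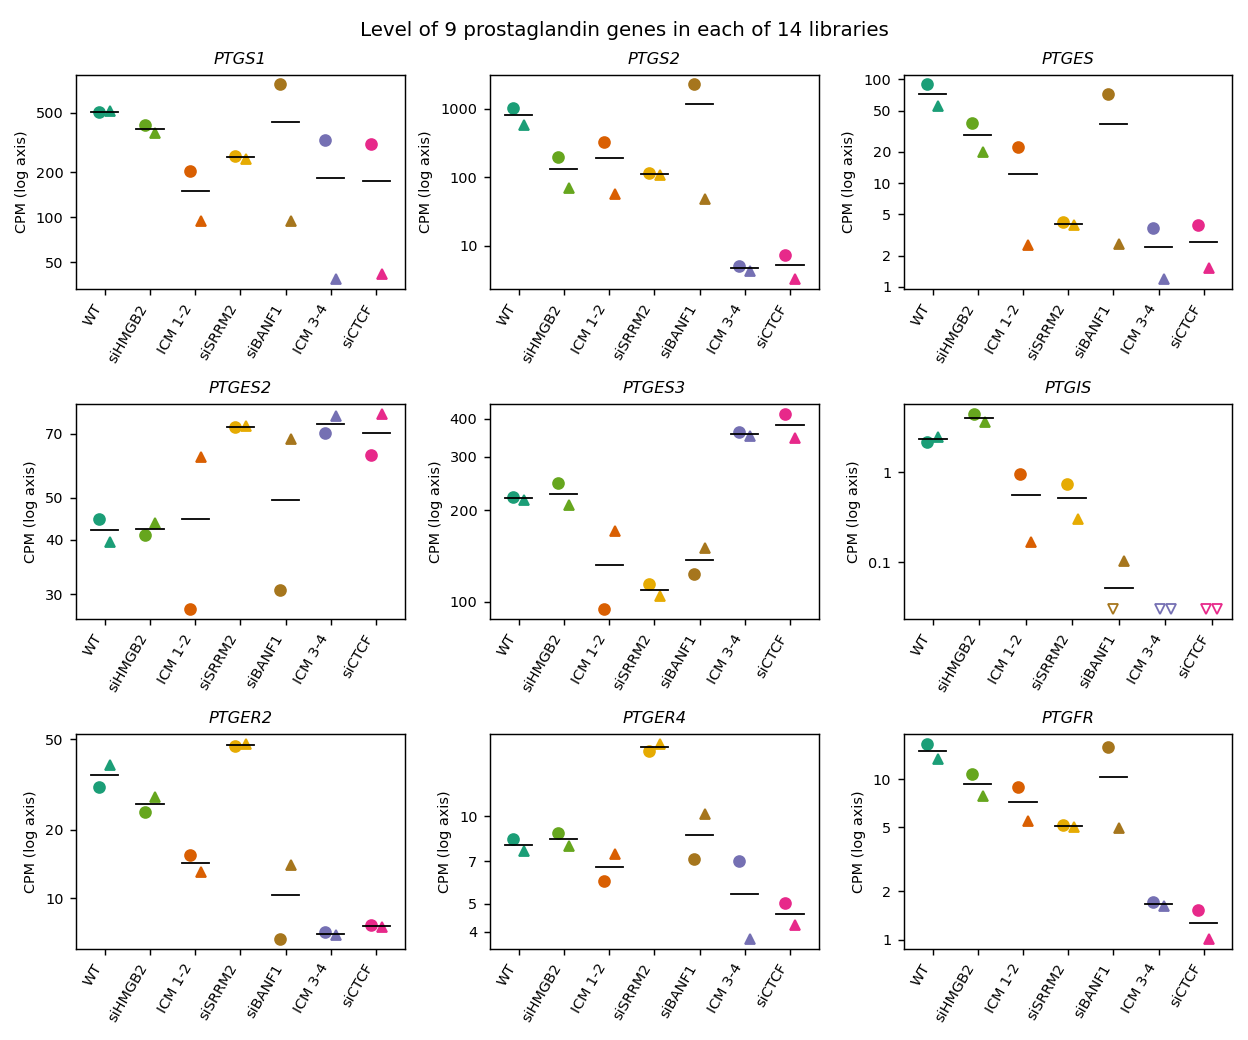
CPM of the 9 detected prostaglandin genes on log axes, with 1 panel per gene and the 7 groups along the bottom. Circles are the lower-numbered and triangles the higher-numbered library of a group, black lines are group means, and open triangles near the bottom of the PTGIS panel are libraries at 0. PTGS2, PTGES and PTGFR are lower in both siHMGB2 libraries than in both WT libraries, and the 5.15 and 4.26 CPM of PTGS2 in ICM 3-4 lie far below WT.

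PTGER2, at chr14:52314312-52328598, encodes the EP2 receptor, which raises cyclic AMP when prostaglandin E2 binds. WT had 31.0 and 38.4 CPM, siHMGB2 had 24 and 27.9 CPM, ICM 1 and ICM 2 had 15.5 and 13 CPM, and ICM 3 and ICM 4 had 7.11 and 6.90 CPM. These 4 groups did not overlap. The siCTCF libraries had 7.61 and 7.47 CPM, and those labelled siBANF1 had 6.64 and 14 CPM. The libraries labelled siSRRM2 had the highest levels, 46.6 and 47.7 CPM, above WT and over both ICM 1-2 libraries. PTGER2 fell in ICM 3-4 against WT by 2.49 ± 0.21 on the log2 scale (adjusted p = 0.000666). In ICM 1-2 its log2 difference from WT was -1.32 ± 0.32, with an adjusted p of 0.121. It passed there in 5 of 10 alternatives, whose adjusted p ran from 6.03e-06 to 0.806. In the libraries labelled siSRRM2 it was 3.30 times the mean of ICM 1-2, with a log2 difference of 1.70 ± 0.26 that did not pass (adjusted p = 0.551). The DESeq2 Wald test of the same libraries called it (adjusted p = 0.0147), and over its 10 alternatives the adjusted p ran from 8.02e-128 to 1.00.

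PTGER4, at chr5:40679915-40746800, encodes the EP4 receptor, which also raises cyclic AMP. Outside the libraries labelled siSRRM2 it lay between 3.78 and 10.2 CPM. WT had 8.31 and 7.57 CPM, siHMGB2 had 8.78 and 7.92 CPM, ICM 1 and ICM 2 had 5.96 and 7.41 CPM, and ICM 3 and ICM 4 had 6.99 and 3.78 CPM. The libraries labelled siBANF1 had 7.10 and 10.2 CPM and siCTCF had 5.01 and 4.22 CPM. Those labelled siSRRM2 had 16.8 and 17.7 CPM, above every other library. PTGER4 passed in none of the comparisons. Its log2 difference between the libraries labelled siSRRM2 and ICM 1-2 was 1.361 ± 0.26 (adjusted p = 0.551), or 2.58 times in the means. PTGER2 and PTGER4 were thus both highest in the libraries labelled siSRRM2, in values that lay outside those of all 12 other libraries. The other receptors of prostaglandin E2 did not have this order. PTGER1 had 1.98 and 1.71 CPM in those libraries and was highest in WT, at 2.06 and 2.41 CPM, and PTGER3 was at 0.552 CPM or less in every library.

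PTGFR, at chr1:78490974-78540701, encodes the FP receptor of prostaglandin F2α. WT had 16.6 and 13.4 CPM, above the 10.8 and 7.85 CPM of siHMGB2. ICM 1 and ICM 2 had 8.91 and 5.49 CPM, and ICM 3 and ICM 4 had 1.72 and 1.62 CPM. The libraries labelled siSRRM2 had 5.17 and 5.02 CPM, those labelled siBANF1 had 15.7 and 4.94 CPM, and siCTCF had 1.52 and 1.01 CPM. PTGFR fell in siHMGB2 by 0.62 ± 0.19 on the log2 scale (adjusted p = 0.0486) and in ICM 3-4 by 3.35 ± 0.28 (adjusted p = 0.000666), 9.0-fold in the means. Its log2 difference in ICM 1-2 was -1.08 ± 0.44 (adjusted p = 0.247). The change in siHMGB2 lay close to the threshold and did not pass without WT 1, without siHMGB2 2 or with DESeq2 (adjusted p = 0.0528). Nor did it pass in the edgeR fit of all 14 libraries, which called no gene in that comparison. Leaving out a library, its log2 difference ran from -0.87 to -0.41.

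HPGD, at chr4:174490175-174522893, had 0 counts in all 14 libraries. With 3 counts as the limit that a count of 0 allows, its level was at most 0.0515 to 0.134 CPM, depending on the depth of the library. It was in no test. At this depth its mRNA was not detectable in untreated, HMGB2-depleted or ICM-treated cells.

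The promoters of PTGES, PTGFR and PTGES3 are shown beside that of PTGS2 because the first 2 fell with PTGS2 against WT, in siHMGB2 and in ICM 3-4, and PTGES3 did not. They are the 250 bases before the RefSeq start on GRCh38.p14, at chr9:129753043-129753292 on the minus strand, chr1:78490724-78490973 on the plus strand and chr12:56688285-56688534 on the minus strand.
PTGES: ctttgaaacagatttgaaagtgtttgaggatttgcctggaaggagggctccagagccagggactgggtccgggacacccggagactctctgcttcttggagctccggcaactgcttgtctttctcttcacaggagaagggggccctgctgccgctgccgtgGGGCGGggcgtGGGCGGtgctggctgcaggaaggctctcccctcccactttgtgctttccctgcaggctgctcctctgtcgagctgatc
PTGFR: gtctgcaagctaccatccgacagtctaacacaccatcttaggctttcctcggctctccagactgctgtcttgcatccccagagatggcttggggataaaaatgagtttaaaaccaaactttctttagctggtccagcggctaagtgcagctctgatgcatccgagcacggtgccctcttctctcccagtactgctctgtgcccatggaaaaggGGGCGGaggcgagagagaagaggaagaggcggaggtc
PTGES3: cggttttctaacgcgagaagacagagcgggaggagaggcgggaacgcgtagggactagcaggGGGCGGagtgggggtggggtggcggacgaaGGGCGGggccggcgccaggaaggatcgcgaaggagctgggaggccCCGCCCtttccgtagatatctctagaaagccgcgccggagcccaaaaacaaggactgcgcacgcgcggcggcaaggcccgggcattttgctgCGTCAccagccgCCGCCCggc
PTGES held 2 matches to GGGCGG, the GC box, at 89 to 84 and 78 to 73 bases before its start, and PTGFR held 1, at 37 to 32. PTGES3 held 4 GC boxes and 1 match to TGACG. The GC box was found in 42.6% of all 35116 entries. None of these 3 windows held the TATA box or either NF-kB form, and G and C made up 50.4% of the bases for PTGS2, 61.2% for PTGES, 54.0% for PTGFR and 68.8% for PTGES3, against a median of 58.0% over all entries. An entry was found for 9 of the 10 genes, the exception being PTGIS.

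In untreated cells with HMGB2 knocked down, PTGS2, PTGES and PTGFR fell against WT, and the other 6 members tested did not pass. These 3 calls stand among 727 genes called lower, 4.74% of 15338 tested, and 10.9% were called in either direction. The median log2 difference of the 9 tested members was -0.32, against 0.00 over all genes tested. The groups did not overlap for 5 members that were lower and 1 that was higher, PTGIS, where 32.5% of all genes tested were lower and 22.0% higher without overlap. In all genes called, 56.4% were higher with TMM scaling and 44.0% with scaling by total counts, and the 3 members were called lower under both. DESeq2 called 1 of these members, PTGS2. Without WT 1 the count of genes called was 815 and of members 2, and without siHMGB2 2 it was 898 and 1, PTGS2. Without siHMGB2 1 the log2 difference of PTGS2 was -3.45. The edgeR fit of all 14 libraries, with its spread shared by all groups, called no gene, and 908 of 19126 genes had an unadjusted p under 0.05. Fibroblast markers stood at 28182 and 33267 CPM in sum in siHMGB2 and at 19660 and 26388 CPM in WT. Of these 10 markers, 5 had a log2 difference above 0 and 5 below, with 3 called higher and 2 called lower. The summed smooth muscle markers stood at 99.4 and 138 CPM against 58.4 and 66.4 CPM, with 2 of the 4 under 1 CPM in every library. The part of either list in the result was not tested. In bulk RNA, fewer cells of a type and less RNA per cell cannot be told apart.

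In the first set of ICM-treated cells, 8 of the 9 tested members had a log2 difference from WT of -0.31 or lower, and for these 8 both ICM 1-2 libraries lay below both WT libraries. Over all genes tested, 27.6% were lower without overlap. PTGES2, the exception, had a log2 difference of -0.0019 that was above 0 with both other scalings, with no filter and with DESeq2. The median of the members was -1.32, against 0.09 over all genes. The edgeR test called 0 of 16617 genes (0%) and so none of these members, while 3664 genes, 22%, and 2 members, PTGS1 and PTGER2, had an unadjusted p under 0.05. DESeq2 called 1917 genes and 3 members, all lower. Without ICM 1 the counts were 10738 genes and 8 members, 7 of them lower, and without ICM 2 they were 8389 genes and 8 members, all lower. Without WT 1 or WT 2 they were 341 and 320 genes and no member. The single library left was then assumed to vary like the other group. Relative to the WT library of the same number, PTGS2 was at 32.3% in ICM 1 and 9.75% in ICM 2, and PTGES was at 24.7% and 4.52%, so ICM 2 lay farther from WT for both genes. For PTGES3, ICM 1 lay farther, at 42.7% against 78.8%. Summed fibroblast markers were at 13727 and 4362 CPM in ICM 1 and ICM 2. Endothelial markers stood at 243 and 68.2 CPM in sum and leukocyte markers at 13.2 and 0.903 CPM, against 69.0 and 83.3 CPM and 1.79 and 0.796 CPM in WT. Nearly all of the endothelial sum was TEK, at 241 and 68.1 CPM in ICM 1 and ICM 2, with PECAM1 at 0.041 and 0.111 CPM. Most of the leukocyte sum was CD14, at 12.9 and 0.700 CPM, with PTPRC at 0 and 0.0368 CPM. The part of these lists in the values of the prostaglandin genes was not tested.

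In the second set PTGS2, PTGES, PTGIS, PTGER2 and PTGFR fell against WT and PTGES2 and PTGES3 rose. These 7 calls stand in a comparison where most genes were called, 8647 of 15677 or 55.2%, with 27.3% called lower and 27.8% higher. The median log2 difference of the 9 tested members was -2.49, the value of PTGER2 itself, which is the same with PTGIS at its bound, and the median of all genes tested was 0.01. Scaling by total counts moved that median of all genes to 0.20, and 7 members, 2 higher and 5 lower, were called there too. The edgeR fit of all 14 libraries called 5 members, all lower. Without WT 1 the counts were 5415 genes and 5 members, and without WT 2 they were 4697 genes and 5 members, all lower. PTGS2, PTGES, PTGIS, PTGER2 and PTGFR were each called lower in all 10 alternatives. Fibroblast markers also fell, 9 of 10 being called lower, and stood at 4273 and 2074 CPM in sum in ICM 3 and ICM 4. The endothelial markers stood at 15.7 and 2.96 CPM in sum, nearly all of it TEK at 15.3 and 2.88 CPM. In WT their sum was 69.0 and 83.3 CPM, with TEK at 67.3 and 81.8 CPM, and 3 of 3 endothelial markers tested were called lower. The part of either in the results for the prostaglandin genes was not tested, and the set cannot be told apart from the treatment.

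The ICM pairs carry the same treatment label and share the WT libraries as their control, so they were compared with each other directly. None of the 8 members tested was called, where 136 of 16195 genes, 0.84%, were. At an unadjusted p under 0.05 there were 4 members, PTGS2, PTGES3, PTGER2 and PTGFR, and 3985 genes, 24.6%. PTGS2 was 41.0 times lower in the mean of ICM 3-4 than in that of ICM 1-2, and its log2 difference was -3.63 without ICM 1 and -6.38 without ICM 2. PTGFR was 4.32 times lower, with a log2 difference of -2.30 ± 0.62 (adjusted p = 0.0919). DESeq2 called 3 members lower and 2291 genes. Without ICM 2, 7 members and 6594 genes were called, and without ICM 1, ICM 3 or ICM 4 it was 1 member, PTGS2, with 1128, 533 and 360 genes.

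**Figure D3:**
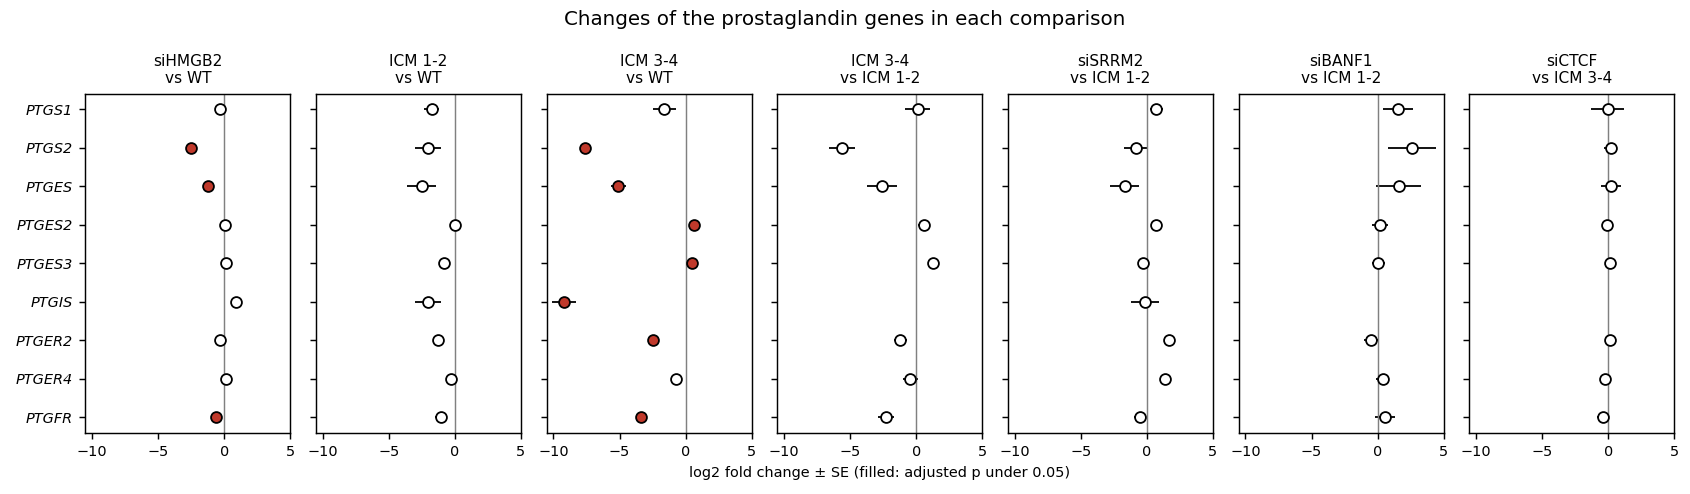
Log2 fold change with its SE for each prostaglandin gene in the 7 comparisons, the first-named group minus the second. Filled points passed at an adjusted p under 0.05, and a gene without a point was not tested. Filled points are seen in 2 comparisons, the 3 lower genes of siHMGB2 against WT and the 5 lower and 2 higher genes of ICM 3-4 against WT.

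Among the 3 knockdowns under ICM no member was called, and edgeR called no gene at all. For the libraries labelled siSRRM2, 0 of 16828 genes were called (0%), 1488, or 8.84%, had an unadjusted p under 0.05, among them PTGER2 and PTGER4, and DESeq2 called 199 genes and 1 member, PTGER2. The 4 members that lay above ICM 1-2 without overlap were PTGS1, PTGES2, PTGER2 and PTGER4, where 22.2% of all genes did. PTGFR lay below without overlap, as did 20.8% of all genes. Without ICM 1 the test called 10386 genes and 8 members, 7 of them higher, and without ICM 2 it called 12350 genes and 8 members, 5 of them higher. PTGS2 changed sign between these, at 1.06 without ICM 1 and -1.60 without ICM 2.

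For the libraries labelled siBANF1, the 2 libraries stood far apart. In the first, PTGS2 was 6.93 times, PTGS1 3.79 times and PTGES 3.23 times the level of ICM 1. In the second they were 0.857, 0.995 and 1.03 times that of ICM 2. None of the 8 tested members lay on the same side of both ICM 1-2 libraries in both of these libraries, as 13.8% of all genes tested did. PTGS1, PTGS2 and PTGFR lay above ICM 1-2 in the first and below it in the second. Of 17616 genes, 0 were called (0%) by edgeR and by DESeq2, and 24, or 0.136%, had an unadjusted p under 0.05. The log2 difference of PTGS2 was 2.60 ± 1.85, and it was -2.06 without the first of these libraries. Endothelial markers stood at 122 and 64.7 CPM in sum in these libraries, nearly all of it TEK at 120 and 64.5 CPM, and their part was not tested.

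For siCTCF against ICM 3-4, 0 of 14704 genes were called (0%) by edgeR and by DESeq2, and 18, or 0.122%, had an unadjusted p under 0.05, with no member among them. All 8 log2 differences of the members tested lay between -0.38, for PTGFR, and 0.19, for PTGS2. The SE of PTGS1 was 1.25, since ICM 3 and siCTCF 1 were high and ICM 4 and siCTCF 2 were low. PTGER2, with 7.61 and 7.47 CPM against 7.11 and 6.90 CPM, had a log2 difference of 0.12 ± 0.26.

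Beyond the 10 genes, 40 further genes of arachidonic acid metabolism were counted by their step, and 5 of these had no count in any library. In siHMGB2 against WT, 30 were tested, 1 rose and 7 fell, where 10.9% of all genes were called. AKR1C1 fell by 1.71 ± 0.20 on the log2 scale (adjusted p = 0.000137) and AKR1C2 by 1.51 ± 0.23 (adjusted p = 0.000874). Both encode aldo-keto reductases that act on steroids and prostaglandins, and their sequences are so alike that reads may have been divided between them. PLA2G4A, the cytosolic phospholipase that releases arachidonic acid, fell by 1.24 ± 0.24 (adjusted p = 0.00495). PLA2G15, a lysosomal phospholipase, rose by 1.46 ± 0.14 (adjusted p = 4.8e-05).

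In ICM 3-4 against WT, 28 of the 40 were tested, 8 rose and 10 fell, where 55.2% of all genes were called. PLA2G4A had 65.4 and 44.6 CPM in WT and 5.10 and 3.82 CPM in ICM 3 and ICM 4, and fell by 3.81 ± 0.30 (adjusted p = 0.000597). SLCO2A1, the transporter that takes prostaglandins up, fell by 3.96 ± 0.48 (adjusted p = 0.00167). ABCC4, an exporter that carries prostaglandins among other substrates, fell by 3.31 ± 0.27 (adjusted p = 0.000633). PTGR1, a reductase of prostaglandin and leukotriene breakdown, rose by 2.69 ± 0.18 (adjusted p = 0.000519), from 102 and 92.3 CPM in WT to 650 and 787 CPM. By step, 2 of 7 tested genes of substrate release rose and 3 fell, 4 of 8 other synthases and reductases rose and 2 fell, 1 of 5 genes of transport and breakdown rose and 4 fell, and 1 of 4 other receptors, PTGIR, fell. No gene of the 40 was called in ICM 3-4 against ICM 1-2, where 0.84% of all genes tested were. In ICM 1-2 against WT and in the knockdowns under ICM edgeR called no gene at all, so none of the 40 could be among the calls.

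Of 4 partners of PTGES3 at the HSP90 chaperone, HSP90AA1, AHSA1 and STIP1 rose in ICM 3-4 against WT, by 1.12 ± 0.19, 0.82 ± 0.17 and 0.88 ± 0.19 on the log2 scale (adjusted p = 0.0049, 0.00975 and 0.0113), where 27.8% of all genes tested were called higher. HSP90AB1 had 0.49 ± 0.18 (adjusted p = 0.0595). None of the 4 was called in siHMGB2 against WT, where 10.9% of all genes tested were called. In ICM 1-2 against WT edgeR called no gene at all, so that comparison says nothing about these 4.

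**Figure D4:**
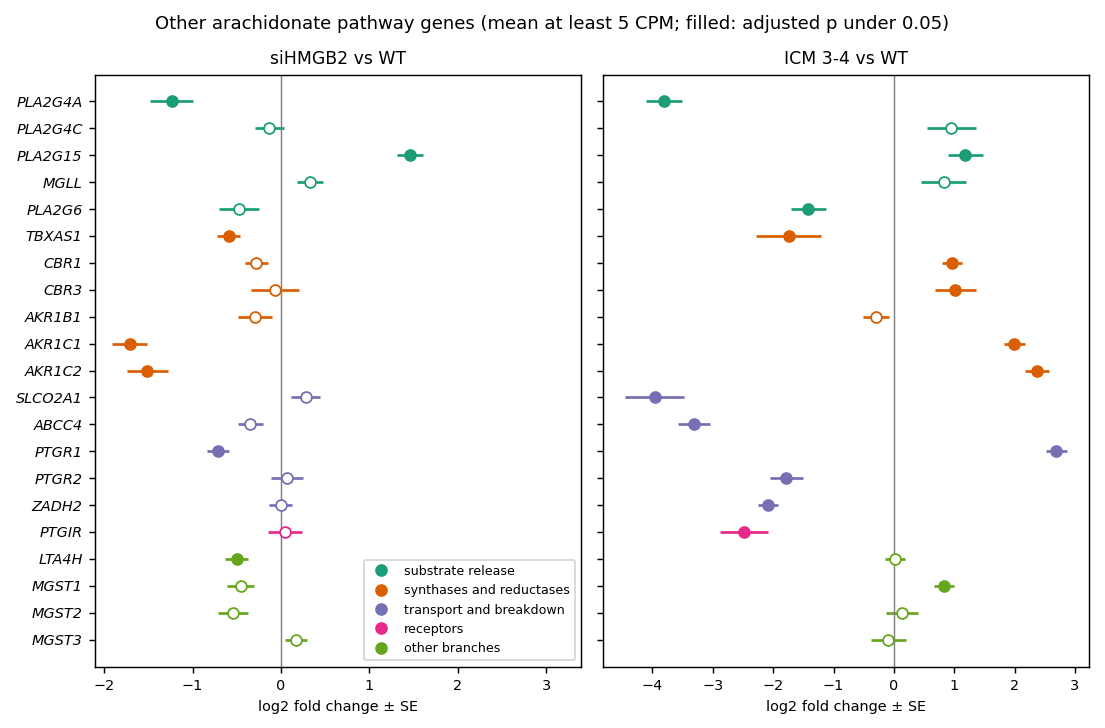
Log2 fold change with its SE for the other genes of arachidonic acid metabolism with a mean of at least 5 CPM, in siHMGB2 against WT and in ICM 3-4 against WT, coloured by step. Filled points passed at an adjusted p under 0.05. PLA2G4A is lower in both, at -1.24 and -3.81, while AKR1C1, AKR1C2 and PTGR1 are lower in siHMGB2 and higher in ICM 3-4.

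The genes whose profile over the 14 libraries came closest to that of a member were searched among 10382 others, by the mean absolute difference of median-centred log2(CPM + 0.5). The libraries share depth, set and composition, so the likeness is a description. For PTGS2 the closest were the chemokine genes CXCL5, at a mean difference of 0.48, and CCL2, at 0.77, followed by RIPOR2 at 0.78, where PTGS2 itself spanned 9.25 on this scale. CXCL5 had 139 and 51.5 CPM in WT, 35.5 and 12 CPM in siHMGB2, 38.7 and 5.97 CPM in ICM 1 and ICM 2, and 0.167 and 0 CPM in ICM 3 and ICM 4. Its value of 129 CPM in the first library labelled siBANF1 and 3.60 CPM in the second repeats the split of PTGS2 between them. In siCTCF it had 0.0895 and 0.0747 CPM, so there and in ICM 3-4 the added 0.5 largely set its value. CCL2, at 0.112 to 0.962 CPM, and RIPOR2, at 0.0373 to 1.61 CPM, were also close to the added 0.5 in these libraries. For PTGES the closest were TMEM132A at 0.37, SNED1 at 0.40 and NID1 at 0.41, where NID1 encodes a basement membrane protein. For PTGFR they were ODF2L at 0.24, NUDT3 at 0.27 and CTSK, the protease cathepsin K, at 0.28. For PTGIS they were TPM4, GTF2IP4 and GLI2, at 0.29 to 0.36, where PTGIS itself spanned 3.30. PTGIS had no count in 5 libraries, and there the added 0.5 alone set its value.

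The order of the groups differed by gene. By group means, PTGS2 ran from the libraries labelled siBANF1 through WT, ICM 1-2, siHMGB2, the libraries labelled siSRRM2 and siCTCF down to ICM 3-4. Of these neighbours only WT and ICM 1-2, and the libraries labelled siSRRM2 and siCTCF, did not overlap. For PTGES no pair of neighbours was free of overlap, from WT at the top through the libraries labelled siBANF1, siHMGB2, ICM 1-2, those labelled siSRRM2 and siCTCF to ICM 3-4. For PTGFR the order was WT, the libraries labelled siBANF1, siHMGB2, ICM 1-2, those labelled siSRRM2, ICM 3-4 and siCTCF, with no overlap between neighbours among the last 4. PTGER2 ran from the libraries labelled siSRRM2 through WT, siHMGB2, ICM 1-2, those labelled siBANF1 and siCTCF to ICM 3-4, with no overlap among the first 4. PTGES3 ran the other way at its top, with siCTCF and ICM 3-4 above siHMGB2 and WT, and the 6 libraries of the first ICM set at the bottom.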

How the data were processed

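The authors deposited a table of whole-number read counts by gene symbol for each library. Per the submitters' processing notes the tools were STAR 2.7.3a, HTSeq 0.12.4 and DESeq2 1.36.0 and the build hg38, while the annotation release and the strand setting are not given in the sources used here. The 5 lines of reads given to no gene, 12.8% to 41.8% of a library, were dropped. CPM was computed from the remaining totals. In each of 7 fits, holding the libraries of the 2 groups compared, edgeR 4.0.16 (R 4.3.3) filtered genes with filterByExpr, applied TMM scaling and ran its quasi-likelihood F-test. All genes tested entered the Benjamini-Hochberg adjustment. The code was also run on simulated counts, and the share of changes it recovers at the spread of these libraries is not given here. Values per length used GENCODE v29 exons, found for 36357 symbols. Other steps used Python 3.11.15, numpy 2.4.6, pandas 2.3.3 and matplotlib 3.10.9.

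The members, the lists of other pathway genes and markers, and the alternatives were chosen with earlier results of these data known. All 10 members were named, with the 4 largest called changes of other pathway genes per comparison at a mean of at least 5 CPM, the 4 HSP90 partners, and the 3 closest profiles of PTGS2, PTGES, PTGIS and PTGFR. HPGD has no profile. PACERR, the PTGES3 copy and PTGIR were named after their values were seen. Marker lists held 10 fibroblast, 5 epithelial, 5 endothelial, 5 leukocyte, 4 smooth muscle and 4 mast cell genes, of which 3 mast cell genes were under 1 CPM in every library. The alternatives were scaling by relative log expression or total counts, no filter, DESeq2 1.42.0, a fit of all 14 libraries, a replicate block and leaving out each library. Replicate numbers are shared by 2 pairs at most, and the main tests did not pair libraries by them. Deviations of matched libraries correlated at 0.85 for siBANF1 with ICM 1-2 and at 0.80 for siCTCF with ICM 3-4. The unpaired tests of these 2 comparisons counted that shared spread as error, which limits what they could call.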

Additional observations from a re-analysis of the deposited data

Results flagged for a closer look

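PTGES3 lay on opposite sides of WT in the ICM pairs: both ICM 1-2 libraries lay below both WT libraries and both ICM 3-4 libraries lay above them. The log2 difference of ICM 3-4 minus ICM 1-2 was 1.30 ± 0.43, and the edgeR test of that difference did not pass (adjusted p = 0.134). It passed in 2 of 9 alternatives. Over all 9, the adjusted p ran from 0.00338 to 0.625 and the log2 difference from 1.02 to 1.66.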

How the results depend on the processing

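Each group had 2 libraries, and the call of PTGIS in ICM 3-4 against WT rests on 72 and 90 counts in WT and 0 in both others. Over all alternatives for single members, 478 values kept their direction and their side of the threshold, 65 newly passed, 15 no longer passed and 34 changed sign. The causes were not tested.

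The count of genes called in ICM 1-2 against WT was 0, and it was 18 with relative log expression scaling, 26 with total counts, 2658 with no filter, 1917 with DESeq2, 2582 with the fit of all 14 libraries and 320 to 10738 leaving out a library. Members called there were 4 with no filter, 3 with DESeq2, 1 with the fit of all 14 and 0 to 8 leaving out a library. In ICM 3-4 against WT, leaving out a library gave 4697 to 10617 genes. In ICM 3-4 against ICM 1-2, where 136 genes were called, the count was 529 with total counts, 2809 with no filter, 2291 with DESeq2, 3738 with the fit of all 14 and 360 to 6594 leaving out a library, with 1, 4, 3, 5 and 1 to 7 members. In siHMGB2 against WT, the fit of all 14 called 0 genes and 0 members, DESeq2 1 member, and leaving out a library gave 815 to 2102 genes and 1 to 3 members. For the libraries labelled siSRRM2, DESeq2 called 199 genes and 1 member, the fit of all 14 called 34 genes, and leaving out a library gave 2 to 12350 genes and 0 to 8 members. For those labelled siBANF1, no filter gave 7 genes and leaving out a library 0 to 11.

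With the replicate block, 1183 genes and 2 members were called in ICM 1-2 against WT, 34 genes in the siSRRM2 comparison, 1 in the siBANF1 comparison and 4 in the siCTCF comparison, where the block followed the numbers in the file names. The block turned PTGIS to 0.18 for siSRRM2 and PTGS1 to 0.0145 for siCTCF. With the block, PTGS1 in ICM 3-4 and PTGIS in siHMGB2 also passed against WT, and no call of a member was lost. Deviations of matched libraries correlated across 13123 genes at -0.18 for ICM 1-2 with WT, 0.11 for ICM 3-4 with WT and 0.22 for siHMGB2 with WT. They correlated at 0.05 for siSRRM2, 0.85 for siBANF1 and 0.80 for siCTCF. ICM 3 and ICM 4 share no replicate number with WT. The block there matched ICM 3 with WT 1 and ICM 4 with WT 2 by order alone, which the labels do not give. For ICM 3-4 against ICM 1-2 no block was fitted.

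Changes of sign were as follows. PTGES2 in ICM 1-2 against WT was 0.0159 with relative log expression scaling, 0.0875 with total counts, 0.00934 with no filter and 0.0159 with DESeq2. Leaving out a library, it ran from -0.55 to 0.39. In ICM 3-4 against ICM 1-2, PTGS1 ran from -2.09 to 1.07 and PTGER4 from -0.92 to 0.0176. In siHMGB2 against WT, PTGES2 ran from -0.0201 to 0.17 and PTGES3 from -0.0034 to 0.22. For siSRRM2, PTGS2 ran from -1.60 to 1.06, PTGES from -2.49 to 0.76, PTGES3 from -0.58 to 0.16 and PTGIS from -0.91 to 1.70. For siBANF1, PTGS1 ran from -0.73 to 2.40, PTGS2 from -2.06 to 4.49, PTGES from -2.32 to 4.00, PTGES2 from -0.47 to 0.76, PTGES3 from -0.26 to 0.48 and PTGFR from -0.59 to 1.17. For siCTCF, PTGS1 ran from -2.22 to 2.27, PTGS2 from -0.58 to 0.70, PTGES from -0.72 to 1.27, PTGES2 from -0.18 to 0.0378, PTGES3 from -0.0832 to 0.27 and PTGER4 from -0.61 to 0.34.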
